A study of Mus musculus with 11 samples.

Results

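Chemokines are small secreted proteins that draw leukocytes along a gradient through G protein-coupled receptors. The mouse genes of this family, and of their receptors, were followed in left ventricular RNA of 11 mice, with or without myocardial infarction (MI) and with or without Vegfc in myeloid cells. Members were all genes whose symbol begins with Ccl, Cxcl, Ccr, Cxcr, Xcl, Xcr or Ackr followed by a number and at most 1 letter, plus Cx3cl1 and Cx3cr1. Of the 25006 genes counted, 67 carried such a name, and 50 of them reached at least 10 counts in at least 2 libraries (31 ligands and 19 receptors).

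The study asked how loss of Vegfc, a lymphatic growth factor, from myeloid cells alters the heart after MI. MI was made by tying off the left anterior descending coronary artery for good, and infarcted ventricle was taken 9 days later. Naive hearts gave ventricle of a like mass and place. The groups were naive control hearts (n = 2, mice M44 and M45), naive Vegfc-deficient hearts (n = 3, M149, M150 and M34), MI control hearts (n = 3, M006, M38 and M40) and MI Vegfc-deficient hearts (n = 3, M35, M900 and M913), and values are given in this order throughout. Vegfc-deficient mice were Vegfc fl/fl with LysMCre, a Cre placed in the Lyz2 gene and active in macrophages, monocytes and neutrophils. The genotype label of the control mice is Vegfc fl/fl without Cre, whereas the extraction protocol names LysMCre mice and a figure legend names C57BL/6 or Vegfc fl/fl, so whether the controls carried Cre cannot be told. Each library is 1 mouse.

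Chemokine receptors fall into groups by the ligands they bind. Ccr2 brings inflammatory monocytes out of the marrow, Cxcr2 draws neutrophils, Cxcr3 draws activated T and NK cells to interferon-induced ligands, and Ccr7 leads dendritic cells to lymph nodes. Atypical receptors (Ackr) bind chemokines without the usual signalling and clear or transport them. After an infarct these genes are known for the ordered entry of neutrophils, monocytes and lymphocytes into the injured wall.

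Library totals were 10824989 to 26782728 counts, so that 3 counts, the floor used here, equalled 0.101 to 0.363 CPM (counts scaled to library size and by the trimmed mean of M values, TMM). Cardiomyocyte Myh6 and Tnnt2 were present in every heart, at 3691 to 5663 and 12753 to 15674 CPM in naive hearts and at 139 to 1858 and 899 to 3835 CPM in MI hearts. Vegfc itself was at 25.1 to 34.7 CPM in naive and 21.9 to 45.5 CPM in MI hearts, so whole-tissue Vegfc did not show the deletion. Lyz2, where Cre sits, was at 2121 and 2282 CPM in naive controls, 4538 to 5380 CPM in MI controls and 1392, 203 and 12.4 CPM in the MI Vegfc-deficient hearts. In the naive Vegfc-deficient group it was 4565 CPM in the library labelled M149 against 72.5 and 245 CPM in M150 and M34, so Lyz2 in M149 was unlike the other hearts of its label. Summed alveolar macrophage markers (6 genes) had the same order in naive hearts. They were at 310 and 316 CPM in M44 and M45 and 826, 14.9 and 33.1 CPM in M149, M150 and M34. Their part was not tested, nor was whether the label of M149 is wrong. The 4 Y-linked genes measured summed to 152 to 195 CPM in the naive hearts and to at most 1.84 CPM in the MI hearts. Xist was at 0.624 to 11.8 CPM in naive and 188 to 403 CPM in MI hearts. By these genes the naive hearts read as male and the MI hearts as female, which the labels do not state. MI and sex therefore cannot be told apart in any MI comparison.

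M38, an MI control heart, stood apart in lymphocyte genes. The summed level of 9 T cell marker genes, none at 0 in every library, was 219 CPM in M38, against 37.7 and 22.2 CPM in the other MI controls, 28.3 to 40.6 CPM in MI Vegfc-deficient hearts and 6.24 to 7.52 and 12.6 to 19.5 CPM in the naive groups. Ifng, the gene of interferon gamma, was at 5.04 CPM in M38 and at most 0.166 CPM elsewhere. Summed neutrophil markers (8 genes) were highest in M40 and M900, at 383 and 221 CPM, against 50.3 and 65.6 CPM in the other MI controls, 38.1 and 61.5 CPM in the other MI Vegfc-deficient hearts, and 20.8 to 37.3 and 76.0 to 114 CPM in the naive groups. In such bulk samples, more or fewer cells of a type and more or less RNA per cell cannot be told apart.

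Per kilobase of exon, the most abundant members of naive control hearts were Ccl6 (166 CPM per kb), Cxcl14 (66.9), Ccl8 (47.9), Ccl9 (47.1) and Ackr3 (43.1), the first and the fourth being ligands of Ccr1 in mice. In MI control hearts the order was Ccl8 (457 CPM per kb), Cxcl16 (118), Ccl6 (110), Ccl12 (96.2) and Cxcl9 (68.0). In MI Vegfc-deficient hearts Ccl8 also led (148 CPM per kb), whereas Cxcl9 was at 4.79 CPM per kb. The means of Ccl8 and Cxcl9 in MI control hearts rest on M38.

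**Figure D1:**
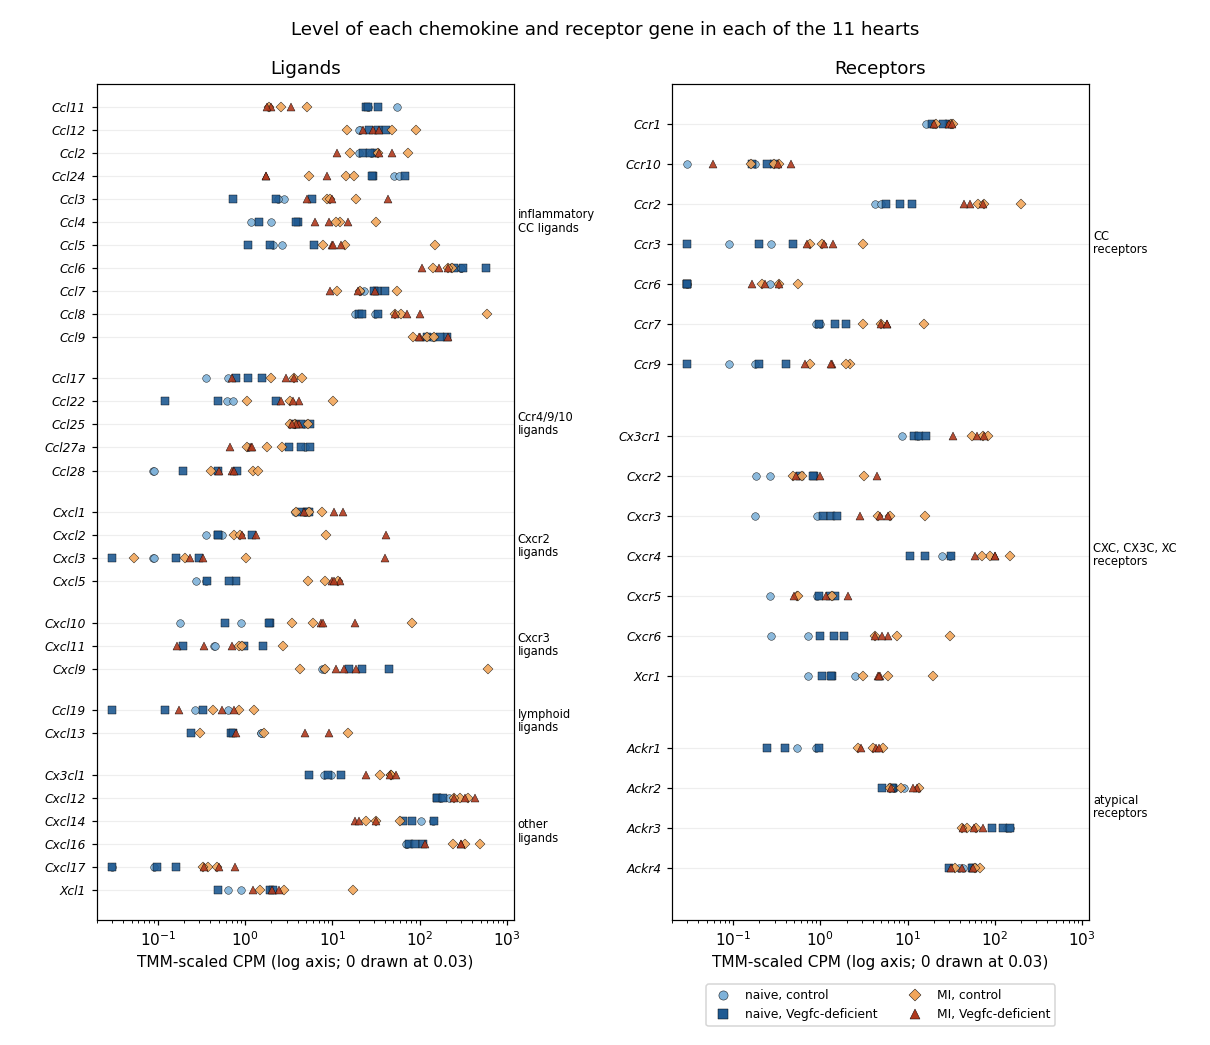
Level of 49 members in each of the 11 hearts, in TMM-scaled CPM on a log axis, with ligands in the left panel and receptors in the right panel, grouped by receptor or class. Each symbol is 1 heart and its shape and colour give the group; the MI symbols lie to the right of all naive symbols for Ccr2 and Cx3cr1 and to the left for Ccl11 and Ackr3, and single MI control symbols lie far to the right for Cxcl9 and Ccl8.

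Naive libraries held 10824989 to 14585642 counts and MI libraries 14580756 to 26782728, so a minimum set in counts was more easily reached in MI libraries. Of the 50 members, 36 reached 10 counts in at least 2 naive and at least 2 MI libraries and 14 did so in MI libraries alone. None did so in naive libraries alone. Of these 14, Ccr6, Ccr10 and Cxcl17 were not tested because they failed the expression filter of edgeR, with levels of 0 to 0.550, 0 to 0.461 and 0 to 0.764 CPM. The other 17 named genes did not enter. Of these, 10, namely 6 Ccl21 entries, 3 Ccl27 entries and a second Ccl19 entry, had 0 counts in every library, which allows 0.101 to 0.363 CPM. For Ccl21a 71.6% and for Ccl21b 100% of the 50-base windows are shared with other genes, so reads from them may not have been counted. Ccl21a, the lymphatic ligand of Ccr7, therefore has no value here. Cxcl15, a lung epithelial chemokine, had at most 8 counts, in M006, and Ccl20, Ccl26 and Cxcr1 had at most 3 counts.

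More members rose than fell after MI in both genotypes. In control hearts 22 of 47 members tested rose and 4 fell after MI at an adjusted p under 0.05 (edgeR quasi-likelihood test, Benjamini-Hochberg adjustment over 14779 genes), against 26.3% and 24.1% of all genes. In Vegfc-deficient hearts 18 rose and 6 fell, against 30.0% and 27.7% of all genes. Of the 50 members, 14 (Ccl17, Ccl19, Ccl22, Ccl28, Ccr10, Ccr3, Ccr6, Ccr9, Cxcl11, Cxcl17, Cxcl2, Cxcl3, Cxcl5 and Cxcr2) reached the count minimum through MI libraries alone, which favours a higher level after MI, and 36 reached it in naive and in MI libraries. Of these 36, 16 (44.4%) rose and 4 (11.1%) fell in control hearts, against 25.2% and 25.6% of the 13469 genes present in both, and 14 (38.9%) rose and 6 (16.7%) fell in Vegfc-deficient hearts, against 29.4% in each direction. Their median log2 fold change was 1.89 in control and 0.96 in Vegfc-deficient hearts, against 0.068 and 0.043 over the genes present in both.

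Among 17 receptors tested, 11 rose and 1 fell in control hearts and 10 rose and 1 fell in Vegfc-deficient hearts. Among 30 ligands, 11 rose and 3 fell in control hearts and 8 rose and 5 fell in Vegfc-deficient hearts. These counts are to be read against the same shares of all genes that rose and fell, 26.3% and 24.1% in control and 30.0% and 27.7% in Vegfc-deficient hearts, and they include members that reached the count minimum through MI libraries alone. In both genotypes 14 members rose (among them Ackr1, Ccl4, Ccr2, Ccr7, Ccr9, Cx3cl1, Cx3cr1, Cxcl16, Cxcl5, Cxcr3, Cxcr4, Cxcr6 and Xcr1) and 4 fell (Ackr3, Ccl11, Ccl24 and Cxcl14), from separate libraries. Another 8 passed in control hearts alone and 6 in Vegfc-deficient hearts alone, and no member passed in opposite directions. The count of members that rose in control hearts was 12 without M44 and 12 without M45, since 1 naive control then remains, and 20 without M38. In Vegfc-deficient hearts it was 10 without M900, 9 without M150 and 13 without M149.

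**Figure D2:**
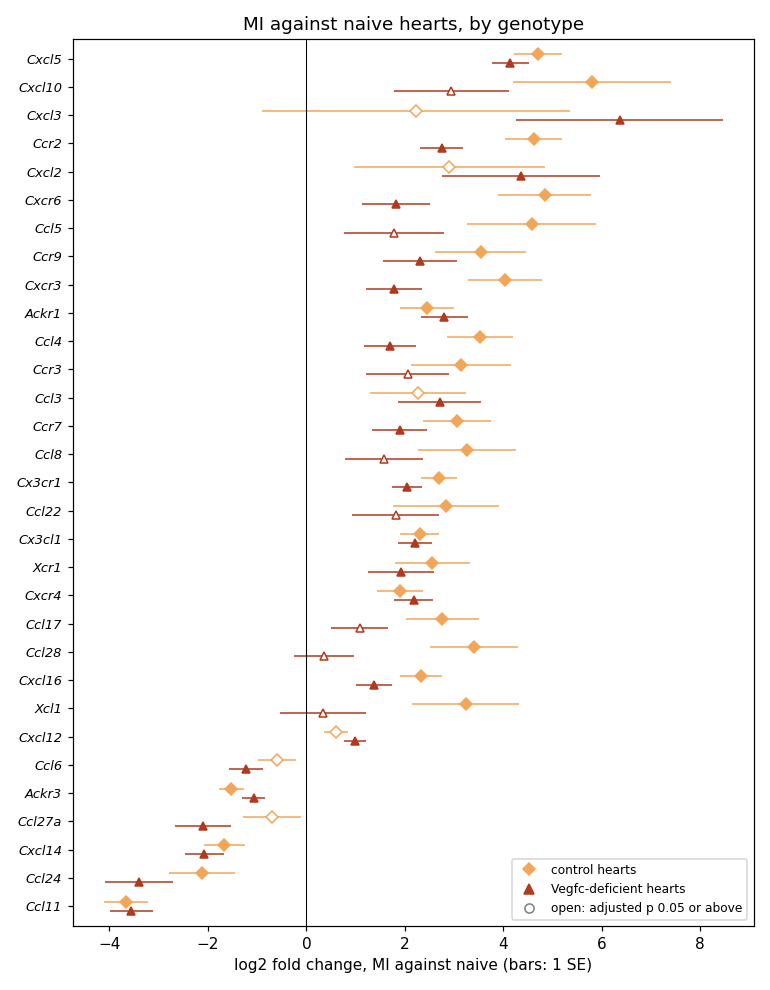
Log2 fold change of MI against naive hearts for 31 of the members that passed the test in at least 1 genotype, with control hearts as diamonds and Vegfc-deficient hearts as triangles; bars are 1 SE and open symbols did not pass at an adjusted p under 0.05. Cxcl5 lies above 4 and Ccl11 below -3 in both genotypes, while Cxcl10, Cxcr6 and Ccl5 lie farther right in control hearts and Cxcl3 in Vegfc-deficient hearts.

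Ccr2 and Cx3cr1, receptors of monocytes and macrophages, rose in both genotypes. Ccr2, the receptor for Ccl2, Ccl7 and Ccl12 on inflammatory monocytes, was at 4.28 and 4.89 CPM in the naive control and 5.69, 8.23 and 11.2 CPM in the naive Vegfc-deficient hearts, and 64.0, 199.9 and 74.5 CPM in the MI control and 73.6, 51.6 and 44.3 CPM in the MI Vegfc-deficient hearts. The lowest MI heart, M913, was well above the highest naive heart, M34. Its log2 fold change was 4.62 (SE 0.580, adjusted p = 0.00033) in control hearts and 2.74 (SE 0.446, adjusted p = 0.00058) in Vegfc-deficient hearts, and the first value was 3.85 (adjusted p = 0.00023) without M38. Cx3cr1, the fractalkine receptor of resident macrophages and patrolling monocytes, was at 8.56 and 13.3 CPM in the naive control and 11.8, 13.6 and 16.1 CPM in the naive Vegfc-deficient hearts, and 54.7, 72.7 and 84.1 CPM in the MI control and 32.9, 75.2 and 62.2 CPM in the MI Vegfc-deficient hearts. It too had no overlap between naive and MI hearts, and M35 was the lowest MI heart. Its rise on the log2 scale was 2.69 (SE 0.368, adjusted p = 0.00045) in control hearts and 2.04 (SE 0.306, adjusted p = 0.00037) in Vegfc-deficient hearts. Ccr1, a receptor for Ccl3 and Ccl5, did not pass in either comparison, with 16.1 to 29.8 CPM in naive and 20.0 to 32.9 CPM in MI hearts. Summed macrophage markers (11 genes, none at 0 in every library) were at 2025 to 2113 and 1859.7 to 2639 CPM in the naive groups. In the MI groups they were at 3384 to 6090.1 and 2463 to 5088 CPM. Of the 11 genes, 6 rose and 2 fell in each genotype. Summed monocyte markers (6 genes) were at 1141 to 1180 and 582 to 2634 CPM in the naive groups. In the MI groups they were at 2662 to 4841 and 2477 to 5464 CPM, and 3 genes rose and 2 fell in each genotype. Over all genes 26.3% and 30.0% rose and 24.1% and 27.7% fell in control and Vegfc-deficient hearts. The part of either list in these results was not tested.

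Lymphocyte and dendritic cell receptors rose as well, with M38 the highest heart for each of Ccr7, Cxcr3, Cxcr6 and Xcr1. Ccr7 was at 0.892 and 0.997 CPM in the naive control and 1.47, 0.968 and 1.95 CPM in the naive Vegfc-deficient hearts, and 4.95, 15.6 and 3.05 CPM in the MI control and 5.82, 4.99 and 5.88 CPM in the MI Vegfc-deficient hearts. Naive and MI hearts did not overlap, and the log2 fold change was 3.05 (SE 0.693, adjusted p = 0.0049) in control hearts and 1.90 (SE 0.561, adjusted p = 0.015) in Vegfc-deficient hearts. Ccr7 in control hearts was 2.00 (adjusted p = 0.0036) without M38, and the call in Vegfc-deficient hearts was lost without M150 (adjusted p = 0.057). Cxcr3, the only member on the X chromosome, was at 0.178 and 0.906 CPM in the naive control and 1.08, 1.33 and 1.55 CPM in the naive Vegfc-deficient hearts, and 6.35, 15.9 and 4.62 CPM in the MI control and 2.82, 5.91 and 4.85 CPM in the MI Vegfc-deficient hearts. Every MI heart exceeded every naive heart, and the log2 fold change was 4.04 (SE 0.750, adjusted p = 0.0018) in control hearts and 1.77 (SE 0.568, adjusted p = 0.021) in Vegfc-deficient hearts. In control hearts it was 3.30 (adjusted p = 0.02) without M44, 5.60 (adjusted p = 0.0081) without M45 and 3.26 (adjusted p = 0.0023) without M38, and in Vegfc-deficient hearts the call was lost without any one of M149, M150, M900 or M913 (adjusted p = 0.057 to 0.073).

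Cxcr6, the Cxcl16 receptor of tissue T cells and NK cells, was at 0.714 and 0.272 CPM in the naive control and 0.981, 1.45 and 1.87 CPM in the naive Vegfc-deficient hearts, and 7.64, 31.0 and 4.22 CPM in the MI control and 5.94, 5.12 and 4.27 CPM in the MI Vegfc-deficient hearts. The groups did not overlap, and M38 was far above the other MI control hearts. Its log2 fold change was 4.84 (SE 0.943, adjusted p = 0.0023) in control hearts and 1.81 (SE 0.690, adjusted p = 0.044) in Vegfc-deficient hearts. The first was 3.49 (adjusted p = 0.001) without M38 and 5.68 (adjusted p = 0.017) without M44, and the second failed without any one of M44, M45, M149, M150, M34, M35, M900 or M913 (adjusted p = 0.052 to 0.12), so it sits at the threshold. Xcr1, a receptor of cross-presenting dendritic cells, was at 2.50 and 0.725 CPM in the naive control and 1.37, 1.33 and 1.06 CPM in the naive Vegfc-deficient hearts, and 5.98, 19.5 and 3.08 CPM in the MI control and 4.88, 4.57 and 4.76 CPM in the MI Vegfc-deficient hearts. Its lowest MI heart, M40, was close to its highest naive heart, M44, and the log2 fold change was 2.56 (SE 0.759, adjusted p = 0.017) in control hearts and 1.92 (SE 0.666, adjusted p = 0.03) in Vegfc-deficient hearts. In control hearts it was 3.71 (adjusted p = 0.029) without M44, 1.93 (adjusted p = 0.13) without M45 and 1.41 (adjusted p = 0.048) without M38, and in Vegfc-deficient hearts the call was lost without any one of M149, M150, M34, M35, M900 or M913 (adjusted p = 0.052 to 0.09). Of the 9 T cell markers given above, 9 rose in control hearts, against 26.3% of all genes. In Vegfc-deficient hearts 1 of the 9 rose, against 30.0% of all genes, although Ccr7, Cxcr3, Cxcr6 and Xcr1 passed there. The median log2 fold change of the 9 markers there was 1.61. Summed dendritic cell markers (8 genes) were at 9623 CPM in M38 and at 875 to 2333 CPM elsewhere. This list holds the MHC class II genes H2-Ab1 and H2-Aa, and the study divided cardiac macrophages by MHC class II as well. The sum is therefore not particular to dendritic cells. Of the 8 genes, 3 rose in control and 2 in Vegfc-deficient hearts, against 26.3% and 30.0% of all genes. The part of either list was not tested.

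Cxcr4, the Cxcl12 receptor of many leukocytes and progenitor cells, was at 24.8 and 30.3 CPM in the naive control and 31.1, 10.5 and 16.03 CPM in the naive Vegfc-deficient hearts, and 87.7, 71.1 and 149.4 CPM in the MI control and 59.5, 100.4 and 101 CPM in the MI Vegfc-deficient hearts. All MI values were above all naive values, with M40 the highest. The log2 fold change was 1.90 (SE 0.463, adjusted p = 0.0069) in control hearts and 2.18 (SE 0.406, adjusted p = 0.0013) in Vegfc-deficient hearts, and the call in control hearts was lost without M44 (adjusted p = 0.062). Ccr9 and Ccr3 were near the floor in naive hearts, with 0 to 5 and 0 to 6 counts per library, and reached 16 to 58 and 14 to 84 counts in MI libraries. Ccr9, a receptor of gut-homing T cells, passed in control (adjusted p = 0.0096) and Vegfc-deficient hearts (adjusted p = 0.022). These calls failed without M44 or M45 (adjusted p = 0.052 and 0.083) and without any one of M149, M150 or M900 (adjusted p = 0.053 to 0.061), respectively. Ccr3, the eotaxin receptor of eosinophils, passed in control hearts (adjusted p = 0.025), a call that failed without any one of M44, M45 or M40 (adjusted p = 0.068 to 0.16), and not in Vegfc-deficient hearts (adjusted p = 0.056). Cxcr2 was at 0.268 and 0.181 CPM in the naive control and 0.588, 0.847 and 0.814 CPM in the naive Vegfc-deficient hearts, and 0.484, 0.609 and 3.16 CPM in the MI control and 0.529, 4.40 and 0.994 CPM in the MI Vegfc-deficient hearts, with M40 and M900 alone above 1 CPM, and did not pass in either comparison. Cxcr5, the Cxcl13 receptor of B cells, ranged from 0.268 to 2.06 CPM with naive and MI hearts overlapping.

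A pair of atypical receptors moved in opposite directions in both genotypes. Ackr1, the Duffy antigen carried by venular endothelium and red cells, was at 0.892 and 0.544 CPM in the naive control and 0.392, 0.242 and 0.977 CPM in the naive Vegfc-deficient hearts, and 4.04, 2.70 and 5.17 CPM in the MI control and 4.35, 2.89 and 4.68 CPM in the MI Vegfc-deficient hearts. Its naive and MI hearts did not overlap, although naive libraries held 2 to 12 counts. The log2 fold change was 2.45 (SE 0.548, adjusted p = 0.0045) in control hearts and 2.80 (SE 0.487, adjusted p = 0.00083) in Vegfc-deficient hearts, 2.15 (adjusted p = 0.051) without M45 in the control comparison and 3.59 (adjusted p = 0.0008) without M34 in the Vegfc-deficient comparison. Of the 50-base windows of Ackr1, 20.4% are shared with the overlapping gene Cadm3, and reads of these cannot be assigned. Ackr3, a scavenger of Cxcl12, was at 138 and 151 CPM in the naive control and 93.3, 124 and 147 CPM in the naive Vegfc-deficient hearts, and 60.6, 48.2 and 42.0 CPM in the MI control and 72.5, 42.9 and 58.2 CPM in the MI Vegfc-deficient hearts. All MI hearts lay below all naive hearts, and the log2 fold change was -1.52 (SE 0.247, adjusted p = 0.00096) in control hearts and -1.07 (SE 0.227, adjusted p = 0.0025) in Vegfc-deficient hearts. Ackr2 (5.10 to 13.6 CPM), which clears inflammatory CC chemokines, and Ackr4 (30.2 to 68.3 CPM), which clears Ccl19, Ccl21 and Ccl25, did not pass in either comparison.

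The ligands of these receptors split. Cxcl12, which holds leukocytes and progenitors in tissue, was at 219.9 and 179 CPM in the naive control and 157, 159 and 188 CPM in the naive Vegfc-deficient hearts, and 293, 360.0 and 251 CPM in the MI control and 246, 427 and 329 CPM in the MI Vegfc-deficient hearts. Naive and MI hearts did not overlap, and the log2 fold change was 0.60 (SE 0.247, adjusted p = 0.066) in control hearts and 0.99 (SE 0.220, adjusted p = 0.0034) in Vegfc-deficient hearts, so the rise passed in Vegfc-deficient hearts alone. Without M40 or M35 the control value was 0.71 (adjusted p = 0.049) and 0.60 (adjusted p = 0.036). Cx3cl1, or fractalkine, the membrane-bound ligand of Cx3cr1, was at 9.54 and 8.06 CPM in the naive control and 5.39, 8.96 and 12.6 CPM in the naive Vegfc-deficient hearts, and 35.6, 47.6 and 47.4 CPM in the MI control and 24.5, 46.4 and 54.3 CPM in the MI Vegfc-deficient hearts. Again every MI heart was above every naive heart. On the log2 scale the fold change was 2.31 (SE 0.397, adjusted p = 0.0012) in control hearts and 2.21 (SE 0.340, adjusted p = 0.00042) in Vegfc-deficient hearts. Cxcl16, the ligand of Cxcr6, was at 72.8 and 69.2 CPM in the naive control and 75.7, 88.4 and 109.8 CPM in the naive Vegfc-deficient hearts, and 239.9, 496 and 333 CPM in the MI control and 116, 296 and 299 CPM in the MI Vegfc-deficient hearts. MI and naive hearts were apart, although M35 lay just above the highest naive heart, and the log2 fold change was 2.33 (SE 0.435, adjusted p = 0.0019) in control hearts and 1.38 (SE 0.361, adjusted p = 0.0082) in Vegfc-deficient hearts. Cxcl14, a constitutive chemokine of epithelia and stroma, fell. It was at 142 and 103 CPM in the naive control and 65.4, 81.1 and 148 CPM in the naive Vegfc-deficient hearts, and 24.2, 59.6 and 31.6 CPM in the MI control and 18.1, 20.5 and 31.6 CPM in the MI Vegfc-deficient hearts, with no overlap, and the log2 fold change was -1.66 (SE 0.424, adjusted p = 0.0085) in control hearts and -2.07 (SE 0.400, adjusted p = 0.0015) in Vegfc-deficient hearts. The control call was lost without M44 (adjusted p = 0.066).

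Eotaxins fell in both genotypes. Ccl11, or eotaxin, a Ccr3 ligand made by fibroblasts, was at 25.6 and 54.9 CPM in the naive control and 33.0, 24.4 and 25.9 CPM in the naive Vegfc-deficient hearts, and 5.17, 1.89 and 2.60 CPM in the MI control and 3.41, 1.97 and 1.78 CPM in the MI Vegfc-deficient hearts. The highest MI heart, M006, lay far below the lowest naive heart, M150. Its log2 fold change was -3.67 (SE 0.447, adjusted p = 0.00029) in control hearts and -3.56 (SE 0.433, adjusted p = 0.00012) in Vegfc-deficient hearts, and -3.005 (adjusted p = 0.0046) without M45 in control hearts. Ccl24, a second eotaxin made by macrophages, was at 51.2 and 57.4 CPM in the naive control and 67.3, 28.9 and 28.2 CPM in the naive Vegfc-deficient hearts, and 14.4, 5.41 and 17.8 CPM in the MI control and 8.64, 1.72 and 1.74 CPM in the MI Vegfc-deficient hearts. Within the MI Vegfc-deficient group M35 was the highest. The log2 fold change was -2.12 (SE 0.678, adjusted p = 0.024) in control hearts and -3.40 (SE 0.686, adjusted p = 0.002) in Vegfc-deficient hearts. Once a trend on transcript length was taken out, the control value was -1.70 (adjusted p = 0.066) and no longer passed. In control hearts the call was lost without any one of M44, M45, M006 or M38 (adjusted p = 0.052 to 0.096), and in Vegfc-deficient hearts the value was -4.58 (adjusted p = 0.00031) without M35. Summed alveolar macrophage markers (6 genes, none at 0 in every library) were at 310.0 and 316 CPM in the naive control hearts. They were at 826, 14.9 and 33.1 CPM in the naive Vegfc-deficient and 72.5 to 142 and 65.8 to 151 CPM in the MI hearts. M149 was the highest of all hearts for this sum and for Ccl24. Of these 6 genes, 1 rose and 0 fell in control hearts, against 26.3% and 24.1% of all genes. In Vegfc-deficient hearts 0 rose and 0 fell, against 30.0% and 27.7%. The sum therefore does not stand for each of the 6 genes, and their part was not tested. Summed fibroblast markers (8 genes) were at 5549 to 5892 and 4789.8 to 6698 CPM in the naive groups. In the MI groups they were at 30382 to 40691 and 37672 to 48064 CPM, opposite in direction to Ccl11, and their part was not tested.

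Ccl4, an inflammatory ligand made by macrophages and NK cells, was at 1.16 and 1.99 CPM in the naive control and 4.02, 1.45 and 3.82 CPM in the naive Vegfc-deficient hearts, and 12.2, 31.6 and 10.9 CPM in the MI control and 6.35, 15.1 and 9.15 CPM in the MI Vegfc-deficient hearts. No naive heart reached the lowest MI heart. The log2 fold change was 3.53 (SE 0.670, adjusted p = 0.002) in control hearts and 1.70 (SE 0.523, adjusted p = 0.018) in Vegfc-deficient hearts. In control hearts it was 2.81 (adjusted p = 0.0029) without M38, and in Vegfc-deficient hearts the call was lost without M150 or M900 (adjusted p = 0.064 and 0.082). Ccl3, its neighbour on chromosome 11 and a ligand of Ccr1, was at 2.76 and 2.36 CPM in the naive control and 5.88, 0.726 and 2.28 CPM in the naive Vegfc-deficient hearts, and 8.72, 18.9 and 9.47 CPM in the MI control and 5.11, 43.6 and 9.94 CPM in the MI Vegfc-deficient hearts. M900 was far above the other hearts of its group, and M35 lay below M149. It passed in Vegfc-deficient hearts at 2.70 (SE 0.833, adjusted p = 0.018), with 1.31 (adjusted p = 0.13) without M900, 3.63 (adjusted p = 0.011) without M149, 2.28 (adjusted p = 0.061) without M150 and 2.53 (adjusted p = 0.062) without M34. In control hearts it did not pass at 2.27 (SE 0.971, adjusted p = 0.074), but did without M900 at 2.24 (adjusted p = 0.029), without M35 at 2.27 (adjusted p = 0.042), with DESeq2 at 2.22 (adjusted p = 0.02) and with the compared groups alone at 2.27 (adjusted p = 0.0096). Ccl6, a Ccr1 ligand of myeloid cells, was at 299 and 296 CPM in the naive control and 573, 313 and 246 CPM in the naive Vegfc-deficient hearts, and 143, 233 and 215 CPM in the MI control and 214, 166 and 105 CPM in the MI Vegfc-deficient hearts. All MI hearts were lower than all naive hearts, and it fell in Vegfc-deficient hearts at -1.22 (SE 0.345, adjusted p = 0.012) but did not pass in control hearts at -0.60 (SE 0.376, adjusted p = 0.21). Once a trend on transcript length was taken out, its value in Vegfc-deficient hearts was -0.79 (adjusted p = 0.091) and no longer passed.

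The Ccr2 ligands did not pass in either comparison, whereas their receptor did. Ccl2 was at 27.6 and 20.3 CPM in the naive control and 31.0, 22.3 and 27.2 CPM in the naive Vegfc-deficient hearts, and 15.9, 74.2 and 33.4 CPM in the MI control and 11.5, 48.1 and 34.5 CPM in the MI Vegfc-deficient hearts, with naive and MI hearts overlapping. The adjusted p was 0.32 in control and 0.74 in Vegfc-deficient hearts. Ccl7 (20.8 to 40.2 CPM naive, 9.52 to 54.8 CPM MI), Ccl12 (20.0 to 41.5 CPM naive, 14.6 to 91.7 CPM MI) and the Ccr1 ligand Ccl9 (123 to 209 CPM naive, 83.2 to 211 CPM MI) did not pass in either comparison. M38 held the highest value of Ccl2, Ccl7 and Ccl12 among all 11 hearts.

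Ccl17 and Ccl22, the Ccr4 ligands of dendritic cells, rose in control hearts. Ccl17 was at 0.357 and 0.634 CPM in naive and 1.99, 3.62 and 4.55 CPM in MI controls. Ccl22 was at 0.624 and 0.725 CPM in naive and 3.28, 10.2 and 1.06 CPM in MI controls, with M40 close to the naive hearts. Their log2 fold changes were 2.76 (SE 0.745, adjusted p = 0.011) and 2.84 (SE 1.08, adjusted p = 0.049). The first call was lost without M44 (adjusted p = 0.091) and the second without any one of M44, M45, M34, M006, M38, M35, M900 or M913 (adjusted p = 0.057 to 0.19). Without M38 the Ccl22 value was 1.59. In Vegfc-deficient hearts neither passed, at 1.08 (SE 0.582, adjusted p = 0.13) and 1.81 (SE 0.891, adjusted p = 0.1). There Ccl17 was 1.502 (adjusted p = 0.016) without M35 and Ccl22 3.35 (adjusted p = 0.02) without M149. With a trend on transcript length removed, Ccl17 was 2.50 (adjusted p = 0.0075) in these hearts. Ccl28, a mucosal Ccr10 ligand, had 1 count in each naive control library and 11 to 42 counts in MI control libraries (adjusted p = 0.01, lost without M44 or M45 (adjusted p = 0.07 and 0.071)), against 2, 4 and 10 counts in naive and 12 to 18 counts in MI Vegfc-deficient libraries (adjusted p = 0.64). Ccl27a was at 1.07 and 4.89 CPM in the naive control and 4.41, 5.57 and 3.17 CPM in the naive Vegfc-deficient hearts, and 1.78, 1.05 and 2.68 CPM in the MI control and 1.18, 0.671 and 1.20 CPM in the MI Vegfc-deficient hearts, with M44 apart from the other naive hearts. It fell in Vegfc-deficient hearts at -2.10 (SE 0.561, adjusted p = 0.0089) but not in control hearts at -0.70 (SE 0.596, adjusted p = 0.35). The control value turned to 0.78 (adjusted p = 0.39) without M45. Copies share 45% of the 50-base windows of Ccl27a, and Il11ra1 overlaps it on the other strand, so its level is uncertain. Ccl25, the Ccr9 ligand, ranged from 3.31 to 5.62 CPM and did not pass.

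Of the ligands of Cxcr2, which draw neutrophils, Cxcl5 rose in both genotypes. It was at 0.357 and 0.272 CPM in the naive control and 0.784, 0.363 and 0.651 CPM in the naive Vegfc-deficient hearts, and 11.7, 8.15 and 5.32 CPM in the MI control and 9.87, 12.4 and 10.4 CPM in the MI Vegfc-deficient hearts. Naive libraries held 3 to 8 counts and MI libraries 145 to 296 counts, with no overlap. Its log2 fold change was 4.70 (SE 0.482, adjusted p = 0.00018) in control hearts and 4.14 (SE 0.375, adjusted p = 4.2e-05) in Vegfc-deficient hearts. Like Cxcl2 and Cxcl3, it reached the count minimum through MI libraries alone. Cxcl2 was at 0.357 and 0.544 CPM in the naive control and 0.490, 1.21 and 0.488 CPM in the naive Vegfc-deficient hearts, and 0.754, 0.879 and 8.51 CPM in the MI control and 1.35, 41.2 and 0.911 CPM in the MI Vegfc-deficient hearts, and Cxcl3 at 0.0892 and 0.0906 CPM in the naive control and 0.294, 0 and 0.163 CPM in the naive Vegfc-deficient hearts, and 0.0538, 0.203 and 1.03 CPM in the MI control and 0.235, 40.7 and 0.331 CPM in the MI Vegfc-deficient hearts. M900 held 971 of its group's Cxcl3 counts, against 4 and 8 in M35 and M913, and M40 was the second highest heart for both genes. Cxcl2 passed in Vegfc-deficient hearts at 4.36 (SE 1.6004, adjusted p = 0.038), but was 0.66 (adjusted p = 0.63) without M900. The call was lost without any one of M44, M45, M149, M150, M34 or M900 (adjusted p = 0.052 to 0.63), and DESeq2 gave no adjusted p for Cxcl2 or Cxcl3 there. Cxcl3 passed in the same comparison (adjusted p = 0.024) against 0, 2 and 3 naive counts, and without M900 it failed the expression filter. That call was lost without any one of M149, M150 or M34 (adjusted p = 0.055 to 0.077) and with limma-voom, which gave 3.42 (adjusted p = 0.3). Cxcl1 was at 4.91 and 3.72 CPM in the naive control and 4.41, 5.08 and 5.37 CPM in the naive Vegfc-deficient hearts, and 5.44, 3.89 and 7.56 CPM in the MI control and 10.3, 13.2 and 4.76 CPM in the MI Vegfc-deficient hearts, with naive and MI hearts overlapping and no call (adjusted p = 0.47 and 0.053), although M35 and M900 were the highest 2 hearts. Cxcr2, Ccl3 and the summed neutrophil markers were also highest or second highest in M900, and whether neutrophils carried the Cxcl2 and Cxcl3 reads was not tested.

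The promoters of Cxcl1, Cxcl2 and Cxcl3 are shown because these neighbours on chromosome 5 code for close relatives and yet differed in M900. Each line gives the 250 bases before the RefSeq start, 5′ to 3′, on GRCm38.p6, and capitals mark matches on either strand to GGGNNTTTC, a kappaB-like motif, or to GAAANNGAA, the core of an interferon-stimulated response element (ISRE). The windows are chr5:90890995-90891244, chr5:90903649-90903898 and chr5:90785851-90786100, all on the plus strand.
Cxcl1: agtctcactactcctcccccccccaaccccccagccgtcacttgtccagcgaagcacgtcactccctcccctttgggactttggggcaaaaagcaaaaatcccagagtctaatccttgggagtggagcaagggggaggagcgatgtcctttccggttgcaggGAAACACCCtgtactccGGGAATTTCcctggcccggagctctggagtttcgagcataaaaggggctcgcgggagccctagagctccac
Cxcl2: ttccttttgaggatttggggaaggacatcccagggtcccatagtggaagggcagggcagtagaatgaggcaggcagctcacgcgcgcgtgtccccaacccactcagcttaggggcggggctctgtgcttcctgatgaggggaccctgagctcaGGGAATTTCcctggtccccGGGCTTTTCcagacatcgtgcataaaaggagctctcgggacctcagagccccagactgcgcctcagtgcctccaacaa
Cxcl3: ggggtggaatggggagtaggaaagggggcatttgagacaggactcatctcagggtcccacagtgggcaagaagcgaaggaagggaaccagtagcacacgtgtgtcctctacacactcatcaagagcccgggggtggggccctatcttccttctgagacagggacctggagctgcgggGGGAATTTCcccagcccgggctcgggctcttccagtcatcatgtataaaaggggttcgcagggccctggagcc
The kappaB-like letters occurred 2 times before Cxcl1, 2 times before Cxcl2 and 1 time before Cxcl3, and the ISRE-like letters in none of the 3 windows. Over 250 bases before to 50 after the start, the kappaB-like letters were found for 10 of the 36 members with a RefSeq promoter (27.8%) and in 4.36% of all 32851 promoters. Here and below, the first share counts members and the second counts promoters. The 36 members have 40 promoters, of which 10 held the kappaB-like letters. With 1 more C at the end, a form searched first, they were found for 5 of the 36 members with a RefSeq promoter (13.9%) and in 1.63% of all 32851 promoters, and 3 of those 5 members are the genes shown. A match is a description of letters and not a site. Of the 50-base windows of Cxcl2, 5.8% are shared with Cxcl3, and 4.2% of those of Cxcl3 are shared with other genes, Cxcl2 among them.

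Ligands of Cxcr3, which interferons induce, were dominated by M38. Cxcl9 was at 7.67 and 8.06 CPM in the naive control and 22.0, 15.6 and 44.1 CPM in the naive Vegfc-deficient hearts, and 8.18, 603 and 4.26 CPM in the MI control and 13.6, 18.7 and 11.1 CPM in the MI Vegfc-deficient hearts. Apart from M38, the MI hearts lay within the naive range or just below it. Cxcl9 did not pass in control hearts at 4.70 (SE 1.85, adjusted p = 0.055), and without M38 the value was -0.41 (adjusted p = 0.51). Cxcl10 was at 0.892 and 0.181 CPM in the naive control and 0.588, 1.94 and 1.87 CPM in the naive Vegfc-deficient hearts, and 3.45, 81.9 and 5.98 CPM in the MI control and 7.52, 18.3 and 7.91 CPM in the MI Vegfc-deficient hearts. All MI hearts were above all naive hearts. It passed in control hearts at 5.81 (SE 1.61, adjusted p = 0.013), or 3.06 (adjusted p = 0.011) without M38, and the call was lost without M44 or M45 (adjusted p = 0.06 and 0.096). In Vegfc-deficient hearts it was 2.94 (SE 1.17, adjusted p = 0.052), and 2.91 (adjusted p = 0.0022) without M38. Cxcl11, annotated in GENCODE as a polymorphic pseudogene, ranged from 0.166 to 2.74 CPM and did not pass in either comparison.

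The CC ligands Ccl5 and Ccl8 and lymphotactin Xcl1, the Xcr1 ligand of T and NK cells, shared this pattern. Ccl5 was at 2.68 and 2.08 CPM in the naive control and 1.08, 1.94 and 6.18 CPM in the naive Vegfc-deficient hearts, and 14.1, 148.6 and 7.93 CPM in the MI control and 10.05, 12.5 and 10.1 CPM in the MI Vegfc-deficient hearts. Its control value was 4.58 (SE 1.31, adjusted p = 0.015), 4.77 (adjusted p = 0.083) without M44, 4.41 (adjusted p = 0.098) without M45 and 2.14 (adjusted p = 0.022) without M38. In Vegfc-deficient hearts it did not pass at 1.78 (SE 1.02, adjusted p = 0.16). Ccl8 was at 18.1 and 30.8 CPM in the naive control and 20.5, 33.5 and 22.1 CPM in the naive Vegfc-deficient hearts, and 60.7, 588 and 51.8 CPM in the MI control and 52.9, 102 and 71.1 CPM in the MI Vegfc-deficient hearts. Its control value was 3.26 (SE 0.9996, adjusted p = 0.02), 2.92 (adjusted p = 0.13) without M44, 3.69 (adjusted p = 0.082) without M45 and 1.139 (adjusted p = 0.022) without M38, and in Vegfc-deficient hearts it did not pass at 1.58 (SE 0.801, adjusted p = 0.11). M38 is in neither of the Vegfc-deficient groups but in the shared fit. Without M38, Ccl8 and Ccl5 in Vegfc-deficient hearts were 1.55 (adjusted p = 0.0015) and 1.77 (adjusted p = 0.015). With the compared groups alone they were 1.61 (adjusted p = 0.0024) and 1.83 (adjusted p = 0.023). With a trend on transcript length removed they were 3.06 (adjusted p = 0.013) and 2.76 (adjusted p = 0.047). Xcl1 was at 0.892 and 0.634 CPM in the naive control and 0.490, 1.94 and 2.12 CPM in the naive Vegfc-deficient hearts, and 2.80, 17.4 and 1.47 CPM in the MI control and 1.23, 2.43 and 2.03 CPM in the MI Vegfc-deficient hearts, and its control value was 3.24 (SE 1.09, adjusted p = 0.03), 3.50 (adjusted p = 0.12) without M44, 3.02 (adjusted p = 0.15) without M45 and 1.40 (adjusted p = 0.11) without M38. For both CC ligands M38 was far above the other MI controls, which lay above every naive heart. M38 was the highest of all 11 hearts for 20 of the 50 members, M900 for 9 and M40 for 8. Of the genes left out by the count rule, Ccl1 (61 counts), its receptor Ccr8 (38 counts) and Ccr4 (17 counts), were almost confined to M38, with at most 3 counts in any other library. In mice Ccl8 is a Ccr8 ligand too. The T cell markers and Ifng given above moved with these genes, as did the summed NK cell markers (6 genes, 74.3 CPM in M38 and 3.14 to 23.4 CPM elsewhere), and their part was not tested.

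The promoters of Cxcl9 and Cxcl10, neighbours on chromosome 5 that M38 set apart from the other MI controls, are shown with the same motifs in capitals. The windows are chr5:92328080-92328329 and chr5:92348890-92349139, both on the minus strand.
Cxcl9: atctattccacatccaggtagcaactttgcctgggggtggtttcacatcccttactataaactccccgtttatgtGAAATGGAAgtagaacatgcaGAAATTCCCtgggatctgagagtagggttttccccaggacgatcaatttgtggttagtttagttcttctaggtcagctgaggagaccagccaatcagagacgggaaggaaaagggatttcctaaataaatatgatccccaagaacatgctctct
Cxcl10: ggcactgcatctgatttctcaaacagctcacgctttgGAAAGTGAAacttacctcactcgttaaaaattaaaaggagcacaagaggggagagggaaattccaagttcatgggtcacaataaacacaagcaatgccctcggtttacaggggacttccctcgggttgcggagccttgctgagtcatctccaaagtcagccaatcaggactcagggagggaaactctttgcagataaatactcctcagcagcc
The ISRE-like letters occurred 1 time before each gene and the kappaB-like letters 1 time before Cxcl9. The ISRE-like letters were found for 6 of the 36 members with a RefSeq promoter (16.7%) and in 8.56% of all 32851 promoters. With 1 more A at the end they were found for 3 of the 36 members with a RefSeq promoter (8.33%) and in 3.44% of all 32851 promoters, and Cxcl10 kept its match while Cxcl9 did not. A pair of other motifs, TTCNNNGAA (the GAS-like letters of STAT factors) and TGANTCA (AP-1-like), were found for 3 of the 36 members with a RefSeq promoter (8.33%) and in 8.3% of all 32851 promoters and for 6 of the 36 members with a RefSeq promoter (16.7%) and in 7.81% of all 32851 promoters, respectively. The shorter forms were chosen after the longer ones had been searched.

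**Figure D3:**
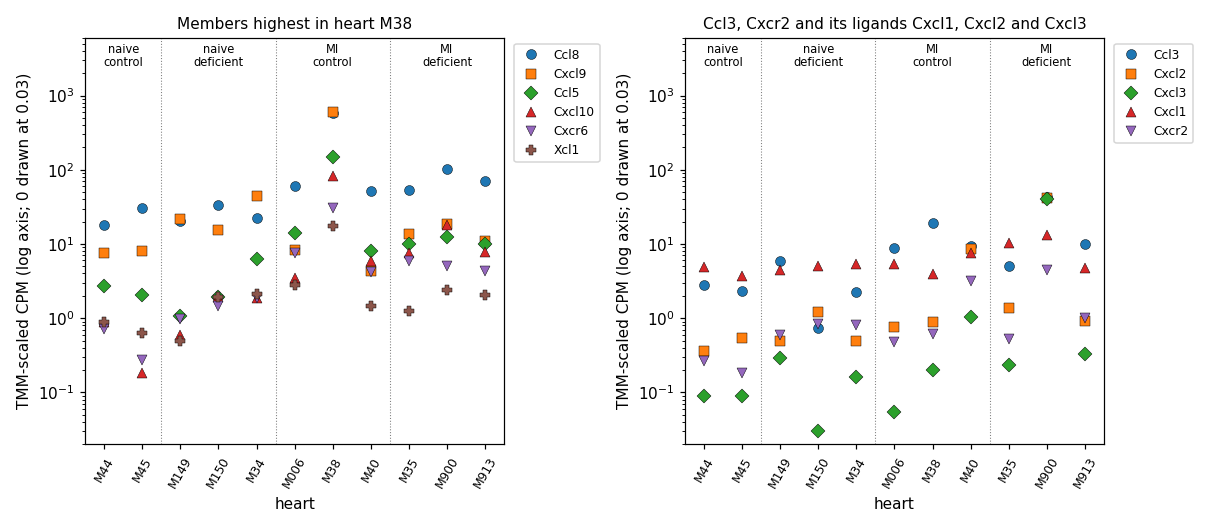
TMM-scaled CPM on a log axis in each of the 11 hearts, with dotted lines between groups, for 6 members that were highest in M38 (left) and for Ccl3, Cxcr2 and 3 Cxcr2 ligands (right). M38 reaches 603 CPM for Cxcl9 and 588 CPM for Ccl8 on the left, and M900 reaches 41.2 CPM for Cxcl2 and 40.7 CPM for Cxcl3 on the right with M40 second.

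Chemokines of lymphoid tissue did not pass in either comparison. Cxcl13, the B cell attractant of lymphoid follicles, was at 1.52 and 1.54 CPM in the naive control and 0.686, 0.242 and 0.732 CPM in the naive Vegfc-deficient hearts, and 1.67, 0.304 and 15.0 CPM in the MI control and 9.11, 4.86 and 0.787 CPM in the MI Vegfc-deficient hearts. Values within each MI group spread from the naive range to well above it (adjusted p = 0.28 and 0.071). Ccl19, a Ccr7 ligand, ranged from 0 to 1.25 CPM and did not pass, and 52.0% of its windows are shared with copies. Summed B cell markers (8 genes) were at 7.49 to 14.0 and 15.0 to 23.1 CPM in the naive groups and 12.9 to 19.1 and 18.5 to 35.2 CPM in the MI groups.

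No member passed the test between Vegfc-deficient and control hearts after MI. With edgeR 0 of 47 members passed, as did 0% of all genes, and DESeq2 and limma-voom also called 0 members. At an unadjusted p under 0.05 there were 8 members, or 17.0%, against 7.94% of all genes. These 8 were Cxcl3, Cxcl11, Cxcl9, Ccl5, Ccl24, Ccr2, Cxcr6 and Xcl1. The count was 2 of 47 members without M38 and 0 of 46 without M900, so it rests on single hearts. The log2 differences (Vegfc-deficient minus control) were -3.83 (SE 1.46, adjusted p = 0.59) for Cxcl9, -2.39 (SE 0.939, adjusted p = 0.6) for Ccl5, -1.92 (SE 0.816, adjusted p = 0.62) for Xcl1, -1.49 (SE 0.613, adjusted p = 0.61) for Cxcr6 and -0.999 (SE 0.405, adjusted p = 0.61) for Ccr2. Without M38 these 5 values were 1.25, 0.016, -0.12, -0.18 and -0.26, so that Cxcl9 and Ccl5 turned. For Cxcl11 the value was -1.95 (SE 0.741, adjusted p = 0.59), or -1.15 (adjusted p = 0.83) without M38, for Ccl24 -1.67 (SE 0.658, adjusted p = 0.6) and for Cxcl3 4.93 (SE 1.70, adjusted p = 0.58), the last resting on M900. Cxcl11, at 0.861, 2.74 and 0.917 CPM in control and 0.705, 0.335 and 0.166 CPM in Vegfc-deficient MI hearts, was the 1 member whose groups did not overlap. It was lower, as were 6.12% of all genes with no overlap, and 0 members were higher, against 5.99%. The Vegfc-deficient MI libraries held 12, 8 and 4 counts of Cxcl11, which is annotated as a polymorphic pseudogene.

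In all, 35 of 47 members lay below 0 in this comparison, with a median of -0.48, against 51.1% of all genes. Without M38 it was 24 of 47, with a median of -0.10, against 45.8% of all genes, and without M900 it was 40 of 46 against 49.0%. The lower side of the family therefore shrank when 1 control heart was left out. Cx3cl1, Cxcr4, Ackr3, Cxcl12 and Cx3cr1 had differences of -0.06, -0.24, 0.20, 0.15 and -0.31 with SEs of 0.313, 0.381, 0.224, 0.217 and 0.287. A difference of the size of these errors was not detectable with 3 hearts a group.

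**Figure D4:**
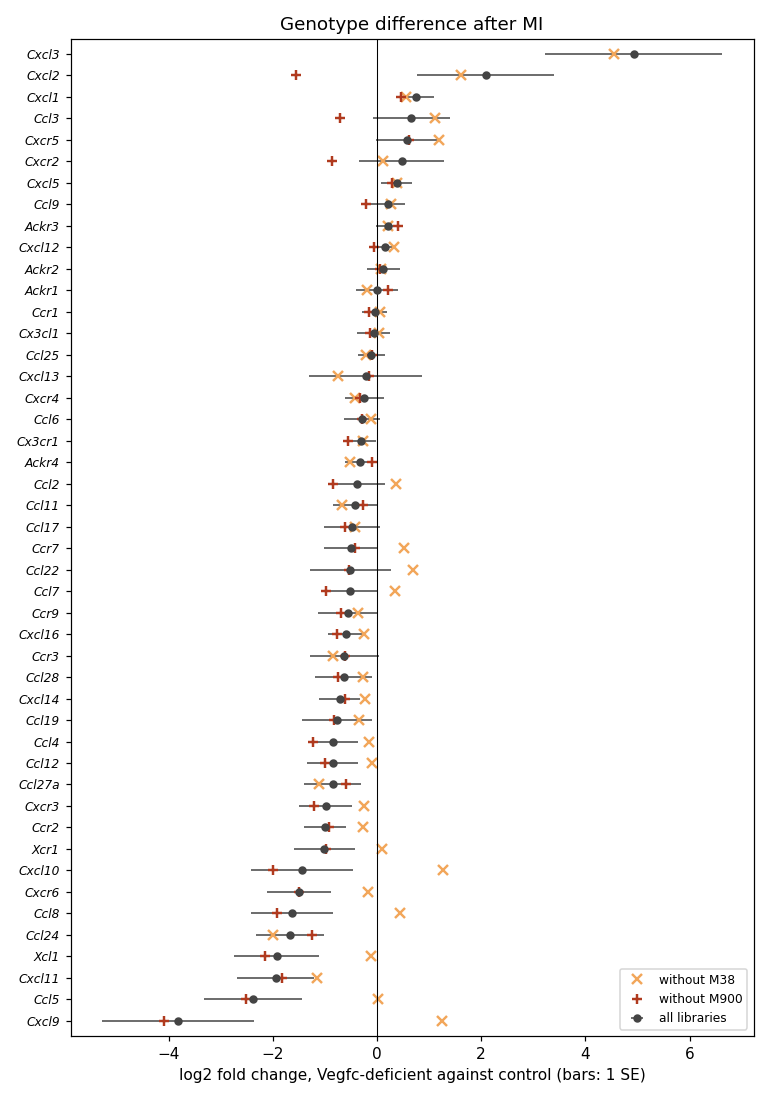
Log2 difference between Vegfc-deficient and control MI hearts for 46 of the members tested, with 1 SE (dots), and the same without M38 (crosses) and without M900 (plus signs). With all hearts 34 dots lie below 0, and the crosses of Cxcl9, Cxcl10, Ccl5 and Ccl8 move to 0 or above, while the plus signs of Cxcl2, Ccl3 and Cxcr2 move below 0.

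In naive hearts no member passed by genotype either. With edgeR 0 of 47 members passed, as did 0% of all genes. DESeq2 and limma-voom called 0 members, and 1 member, Ccl28, had an unadjusted p under 0.05 (3.38% of all genes). In all, 13 members were higher in all 3 Vegfc-deficient than in both control hearts, or 27.7%, against 12.3% of all genes, and 2 (Ackr2 and Cxcl13) were lower, against 10.1%. Among the 5 members with the smallest p were Ccl28, Ccr1 (0.48 (SE 0.272, adjusted p = 1)), Cxcl5 (0.94 (SE 0.558, adjusted p = 1)) and Cxcr3 (1.28 (SE 0.774, adjusted p = 1)). Cxcl9 was at 7.67 and 8.06 CPM in naive control and 22.0, 15.6 and 44.1 CPM in naive Vegfc-deficient hearts. Summed T cell and neutrophil markers were higher in every naive Vegfc-deficient heart as well, by the values above, and their part was not tested. In this comparison 11 of 47 members lay below 0, against 47.5% of all genes, and 14 of 47 without M149, against 46.2%.

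Whether MI changed a member differently in the 2 genotypes was tested as an interaction, and 0 of 47 members passed with edgeR, as did 0% of all genes. DESeq2 and limma-voom also called 0 members, and 7 members (14.9%) had an unadjusted p under 0.05 against 8.30% of all genes. That count was 3 of 47 members without M38 and 6 of 46 without M900. Ccr2 had an interaction of -1.87 (SE 0.669, adjusted p = 0.55), or -1.13 (adjusted p = 0.72) without M38. Cxcr6 had -3.02 (SE 1.15, adjusted p = 0.56), Cxcl9 -5.62 (SE 2.23, adjusted p = 0.56) and Cxcl11 -3.01 (SE 1.20, adjusted p = 0.56), against -1.70 (adjusted p = 0.73), -0.53 (adjusted p = 0.87) and -2.20 (adjusted p = 0.73) without M38. Ccl28, the fifth, rests on the 1 count of each naive control library. Members that passed after MI in 1 genotype alone are thus not shown to differ between genotypes.

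Other genes of the pathway were counted in 3 lists. The lists were chosen with earlier results of these data known. Of 30 genes of chemokine receptor signalling (G protein subunits, arrestins, kinases and guanine exchange factors), 20 rose and 0 fell in control hearts and 19 rose and 1 fell in Vegfc-deficient hearts. The median log2 fold changes were 0.91 and 0.85. Over all genes 26.3% and 30.0% rose and 24.1% and 27.7% fell, with medians of 0.13 and 0.097. Arrb2 and Arrb1, the arrestins that silence and internalise these receptors, and Prex1, a Rac exchange factor, led in control hearts, at 1.56 (SE 0.230, adjusted p = 0.00059), 0.93 (SE 0.173, adjusted p = 0.0018) and 1.88 (SE 0.354, adjusted p = 0.0019). Stat3, Arrb1 and Elmo1, a Rac regulator of cell migration, led in Vegfc-deficient hearts, at 1.07 (SE 0.141, adjusted p = 0.00018), 1.15 (SE 0.152, adjusted p = 0.00018) and 1.30 (SE 0.181, adjusted p = 0.00024).

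Of 16 inducers and transcriptional regulators of chemokines, 8 rose in control and 7 in Vegfc-deficient hearts and none fell, with medians of 1.08 and 0.98. Over all genes, 26.3% rose and 24.1% fell in control hearts and 30.0% rose and 27.7% fell in Vegfc-deficient hearts. Nfkbiz, a nuclear cofactor of NF-kappaB, rose by 2.01 (SE 0.227, adjusted p = 0.00022) and 1.44 (SE 0.192, adjusted p = 0.00019), Nfkb1 by 0.85 (SE 0.121, adjusted p = 0.00052) and 1.23 (SE 0.108, adjusted p = 3.9e-05), and Il6 by 5.13 (SE 0.780, adjusted p = 0.00069) and 5.43 (SE 0.642, adjusted p = 0.00011), in control and Vegfc-deficient hearts respectively. Of 7 chemokine and chemokine-binding genes that the naming rule leaves out, 1 rose and 3 fell in each genotype, to be read against the same shares of all genes. Pf4, or platelet factor 4, also known as Cxcl4, fell in control hearts at -1.49 (SE 0.164, adjusted p = 0.0002) and in Vegfc-deficient hearts at -1.09 (SE 0.150, adjusted p = 0.00022). Ccrl2, a non-signalling chemerin-binding relative of these receptors, fell at -0.77 (SE 0.254, adjusted p = 0.027) and -0.73 (SE 0.232, adjusted p = 0.021), calls lost without any one of M44, M45 or M006 (adjusted p = 0.084 to 0.13) in control hearts and without any one of M149, M900 or M913 (adjusted p = 0.065 to 0.081) in Vegfc-deficient hearts. Mif, a cytokine that binds Cxcr2 and Cxcr4, fell at -0.56 (SE 0.158, adjusted p = 0.014) and -0.42 (SE 0.143, adjusted p = 0.029), the first call being lost without M45 (adjusted p = 0.11). Cd74, a receptor of Mif, rose in control hearts at 2.14 (SE 0.746, adjusted p = 0.035), or 0.63 (adjusted p = 0.097) without M38, and that call was also lost without any one of M44, M45 or M913 (adjusted p = 0.054 to 0.18). Cmklr1, the chemerin receptor, rose in Vegfc-deficient hearts at 0.65 (SE 0.184, adjusted p = 0.012), a call lost without M900 (adjusted p = 0.063). Pf4 in Vegfc-deficient hearts and Mif in control hearts turned to 0.11 and 0.13 once a trend on transcript length was removed, and neither passed then. Summed platelet markers (5 genes) were at 128 to 141 and 135 to 150.2 CPM in the naive groups and 46.4 to 63.2 and 68.0 to 73.9 CPM in the MI groups. Pf4 is itself in this list and made up most of the sum, at 124 of 128 CPM in M44 and 57.0 of 63.2 CPM in M38. The sum is therefore not a measure of platelets apart from Pf4. None of the genes in these 3 lists passed in a genotype comparison or the interaction with edgeR.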

How the data were processed

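Poly(A) RNA of left ventricle was sequenced from 11 mice, 1 stranded TruSeq library per mouse. Per the labels, the authors extracted RNA with RNeasy Plus columns, and the submitters' processing notes name cutadapt 1.13, STAR, HTSeq 0.6.1p1, DESeq2 1.14.1 and the build mm10. The deposited values are raw counts per Ensembl gene, made by the authors before deposit and not normalized. The counting options, strand setting and annotation release are not given in the sources used here, so reads of overlapping antisense genes (such as Art3 at Cxcl10, Zmynd15 at Cxcl16 and Gm20743 at Xcl1) may not be told apart.

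Symbols, positions and exon lengths came from GENCODE M21 on GRCm38, which held 24991 of the 25006 genes. Promoters came from RefSeq (GRCm38.p6), with an entry for 36 of 50 members. All rows named a gene. Library totals were 10824989 to 26782728 counts, and intervals or floors drawn from counts cover counting error only. Samples were grouped by their genotype and treatment labels. Counts were filtered with filterByExpr, scaled by TMM and fitted in 1 model of 4 groups over all 11 libraries with edgeR 4.0.16 (quasi-likelihood F test, R 4.3.3), and p-values were adjusted by Benjamini and Hochberg over 14779 genes, with a threshold of 0.05. The SE of a log2 fold change is its size divided by the square root of F. Every adjusted p in the report is from this edgeR fit unless another tool is named. The steps were tested on simulated data with known fold changes. Alternatives were DESeq2 1.42.0, limma-voom (limma 3.58.1), other scalings and filters, the compared groups alone, removal of a trend on transcript length, stricter thresholds and each library left out.

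The members and lists were chosen with earlier results of these data known. Values in every library were given for the 10 members with the smallest p in each MI comparison among those that passed, the 8 after MI, 5 in naive hearts and 5 for the interaction with the smallest p between genotypes, and a list of well-known members. No protein sequences were printed, for lack of a table of them. Other members named were chosen to account for the family, and the printed promoters were chosen after their values were seen. Counts cover all members, and the values of 1 member are not reported here.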

Additional observations from a re-analysis of the deposited data

How the results depend on the processing

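At an adjusted p under 0.01, 13 members rose after MI in control and 8 in Vegfc-deficient hearts. With each library left out in turn, 12 to 24 members rose and 2 to 4 fell in control hearts, and 9 to 22 rose in Vegfc-deficient hearts. The low counts came without M44 or M45 (12 each) and, in Vegfc-deficient hearts, without M150 (9) or M900 (10); where a naive control was left out, the lone one was assumed to vary like the other groups. With the trend on transcript length removed, 24 rose and 3 fell in control and 25 rose and 5 fell in Vegfc-deficient hearts, and Pf4 turned to 0.11 in Vegfc-deficient and Mif to 0.13 in control hearts. Turned values with a library left out were those of Ccl27a in control hearts (-1.41 to 0.78, the last without M45), Ccl28 (-0.028 to 0.96) and Xcl1 (-0.089 to 0.69) in Vegfc-deficient hearts, both turning without M149, and Ccl5 (-2.90 to 0.016) and Cxcl9 (-4.42 to 1.25) between genotypes after MI, both turning without M38. The cause was not tested. No member passed between genotypes or for the interaction under any alternative run. Over all genes, DESeq2 called 51 after MI, 14 in naive hearts and 55 for the interaction where edgeR called 0, limma-voom called 6 in naive hearts, the compared groups alone gave 2 there, and edgeR called up to 1, 17 (without M149) and 1 with a library left out. After MI against naive, 7450 genes passed in control hearts, against 4880 without M44, 4574 without M45, 4798 at an adjusted p under 0.01 and 4550 with the added demand of a log2 fold change of 1 or more in size. In Vegfc-deficient hearts 8520 passed, and 4965 with that demand. Of 64 log2 fold changes of members in the MI comparisons, 61 kept their direction, and 37 did so without losing a call, under every alternative. No paired analysis was possible because the groups share no replicate numbers, each library carrying the name of its own mouse.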
